A study of Mus musculus with 5 samples.

Results

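The genes described here are 9 immediate early genes (Fos, Fosb, Jun, Junb, Egr1, Ier2, Atf3, Dusp1 and Nr4a1) and 1 inducible heat shock gene (Hspa1a). They were taken by symbol from a gene table of mouse colon, and each symbol met 1 row, so that 10 of 52382 genes are described, called the members below. All 10 passed the filter used for the comparisons, a mean level of 1 CPM (count per 1000000 counted reads) or more over the libraries, as did 14720 genes in all. The table holds 1 library at each of 5 time points of a colitis-associated cancer model, followed here from W0 to W11.

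In that model azoxymethane (AOM), a mutagen, is injected, and dextran sulfate sodium (DSS), a polymer that injures the colonic lining, is given in the drinking water. W0 is the untreated control, on distilled water. W2 is labelled as AOM alone, 2 weeks after the start. W5, W8 and W11 are labelled as AOM and DSS, at 5, 8 and 11 weeks. All mice were male C57BL/6 wild-type animals, 8 to 12 weeks old at the start. AOM was given at 8.5 mg/kg into the abdomen on days 1 and 8, and DSS at 1.5% for 7 days followed by 14 days of water, in cycles. From each group 3 mice were selected, and whether their RNA was pooled is not stated. W0 is described both as taken before treatment and as killed together with the treated mice, so age and treatment cannot be told apart in a difference from W0.

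RNA came from 40 mg of colon tissue, which the labels also call intestinal epithelial cells. Smooth muscle markers were present in every library (8 genes, together 3191 to 7299 CPM, beside 17540.1 to 25743 CPM for 9 epithelial markers), so the samples were not epithelium alone. Counted reads ran between 13389184 and 20379429 per library, and 20111 to 21245 genes had at least 1 read. Since each time point has 1 library, no replicate error and no test can be given. Bracketed values marked -fold are ratios of CPM with no pseudocount. A bracketed value without that mark, after a level set against W0, is a log2 fold of CPM + 1. Each ratio has an exact conditional (Clopper-Pearson) 95% interval from the counts, which covers counting error only and not the difference between mice. The words rose and fell are used only for differences of at least 2-fold in log2(CPM + 1).

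Immediate early genes are transcribed within minutes of a signal at the cell surface, without new protein synthesis, and their transcripts are short-lived. MAP kinases and cAMP-dependent kinases act on factors already bound at their promoters, chiefly serum response factor with its ternary complex partners, and CREB. Many of their products are transcription factors: FOS and JUN proteins pair as AP-1, EGR1 binds GC-rich sites and NR4A1 is an orphan nuclear receptor. In the gut they respond to growth factors, cytokines, wounding and tissue handling. Hspa1a encodes an inducible HSP70 chaperone, whose promoter is bound by heat shock factor when proteins misfold.

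Promoters of genes on which the results turn are shown with the motifs by which these genes are usually grouped. Sequences are the 150 bases before the annotated start, from a set of RefSeq promoters on GRCm38.p6. The set held 8 of the 10 genes, without Egr1 and Ier2. The build of the gene table is not settled by its labels, and no coordinates from it are used. Capitals mark the cAMP response core TGACG or its reverse complement CGTCA, the palindromic cAMP response element TGACGTCA that contains both, the heat shock unit GAANNTTC, and the TATA box TATAAA. Fos lies at chr12:85473740-85473889 on the plus strand, Nr4a1 at chr15:101266696-101266845 on the plus strand, and Fosb at chr7:19310046-19310195 on the minus strand.
Fos: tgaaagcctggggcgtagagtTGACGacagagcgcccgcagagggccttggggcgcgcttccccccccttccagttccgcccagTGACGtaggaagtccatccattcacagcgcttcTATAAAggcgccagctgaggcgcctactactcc
Fosb: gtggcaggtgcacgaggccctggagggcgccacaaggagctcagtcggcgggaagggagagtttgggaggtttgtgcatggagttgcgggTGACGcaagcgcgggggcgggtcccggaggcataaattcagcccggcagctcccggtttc
Nr4a1: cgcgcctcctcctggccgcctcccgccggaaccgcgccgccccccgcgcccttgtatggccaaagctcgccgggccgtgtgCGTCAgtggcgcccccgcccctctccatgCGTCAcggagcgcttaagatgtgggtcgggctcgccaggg
Dusp1 lies at chr17:26508473-26508622 on the minus strand and Jun at chr4:95052223-95052372 on the minus strand, and they are shown for the palindromic element and for the heat shock unit outside the heat shock genes.
Dusp1: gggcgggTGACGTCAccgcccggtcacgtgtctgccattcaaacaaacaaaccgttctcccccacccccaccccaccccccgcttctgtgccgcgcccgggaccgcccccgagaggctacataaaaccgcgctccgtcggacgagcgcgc
Jun: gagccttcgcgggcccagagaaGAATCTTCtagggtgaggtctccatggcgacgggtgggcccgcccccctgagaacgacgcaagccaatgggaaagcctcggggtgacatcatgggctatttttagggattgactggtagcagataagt
Hspa1a at chr17:34972157-34972306 and its neighbour Hspa1b at chr17:34959239-34959388, both on the minus strand, are shown because their promoters are identical at 149 of 150 bases.
Hspa1a: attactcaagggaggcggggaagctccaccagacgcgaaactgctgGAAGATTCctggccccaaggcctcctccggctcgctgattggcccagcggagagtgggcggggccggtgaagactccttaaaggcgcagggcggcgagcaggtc
Hspa1b: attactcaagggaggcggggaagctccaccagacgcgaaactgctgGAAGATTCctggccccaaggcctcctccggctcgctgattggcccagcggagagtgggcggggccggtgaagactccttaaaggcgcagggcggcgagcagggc

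Both strands of the 250 bases before each start were searched. The cAMP response core was found in 6 of the 8 promoters, and in 17.8% of 32851 RefSeq promoters of the same length. Fos holds it 129 and 66 bases before the start, Fosb at 60, Junb at 106, Atf3 at 7, Dusp1 at 191, 143 and 140, and Nr4a1 at 233, 213, 69 and 40. The Dusp1 matches at 143 and 140 are the strands of the palindromic element, which 1.55% of promoters hold and no other of the 8 did. The heat shock unit was found in Hspa1a, at 104 bases as in Hspa1b, and in Jun, at 128 bases, as in 6.69% of promoters. A TATAAA box was found in Fos at 33 bases, as in 12.4% of promoters. The CArG box, bound by serum response factor, was found in none of the 8 within this window, against 1.47% of promoters. Egr1, Ier2 and bases further upstream were not searched. A match describes letters in a window and not a bound site.

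As a group the 10 genes had their highest summed level in the untreated colon and their lowest at W8. Their summed level was 2073 CPM in W0, 1739 CPM in W2, 1036 CPM in W5, 953 CPM in W8 and 1299 CPM in W11. W0 was the highest library for 7 genes, W2 for Ier2 and Nr4a1, and W11 for Atf3. W8 was the lowest library for 6 genes, W5 for Jun, Junb and Ier2, and W11 for Hspa1a. In bulk tissue fewer cells of a type and less RNA per cell cannot be told apart.

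**Figure D1:**
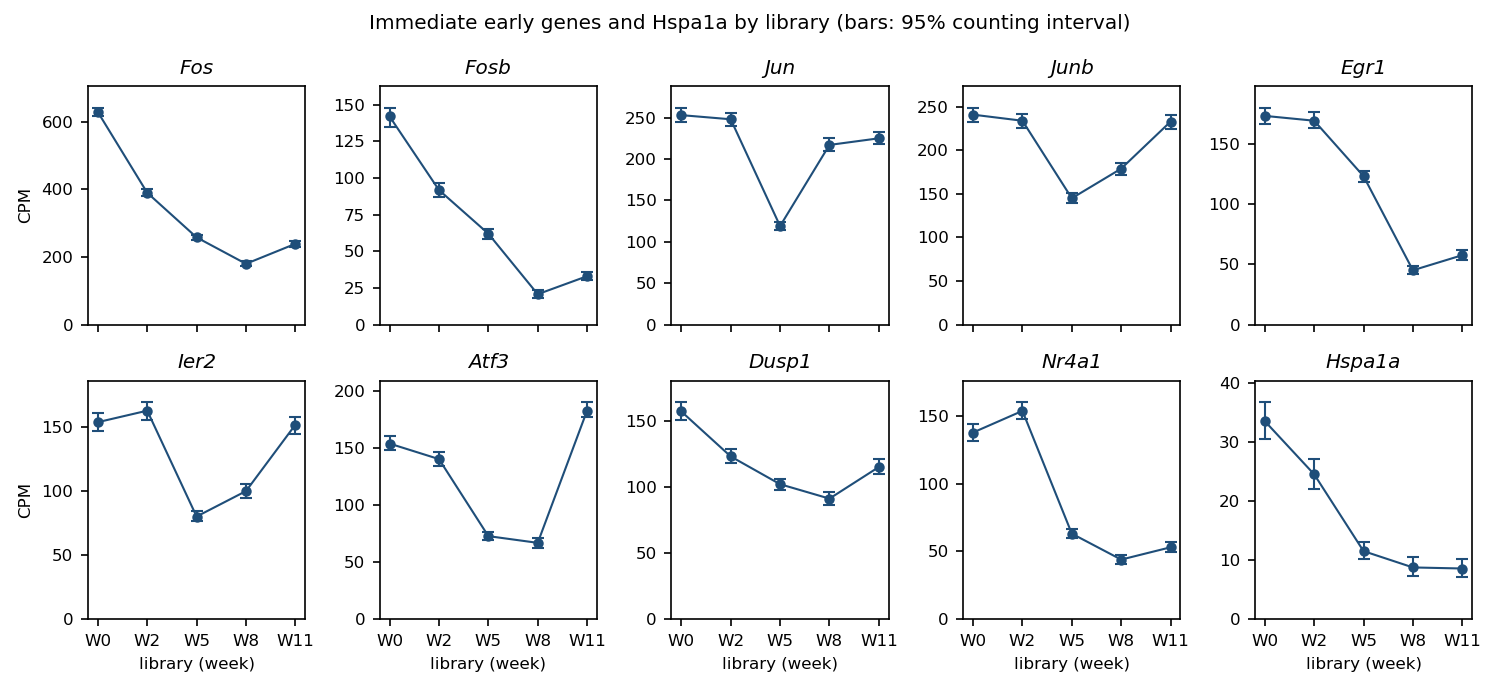
Level of each gene in each library, in CPM, with each vertical axis starting at 0; points are single libraries and bars are 95% counting intervals. Fos was highest in W0, at 629 CPM, Jun, Junb and Ier2 were lowest in W5, and Atf3 was highest in W11, at 183 CPM.

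The FOS family members Fos and Fosb encode AP-1 subunits that bind DNA only with a JUN partner. Fos was at 629 CPM in W0, 390.1 CPM in W2, 258 CPM in W5, 179.8 CPM in W8 and 239 CPM in W11. The W0 library was thus highest and W8 lowest, and the counting intervals of no 2 libraries overlapped. Against W0, Fos fell by 1.28 on the log2 scale in the W5 library (2.44-fold, 2.35 to 2.52), by 1.80 in W8 (3.5-fold, 3.34 to 3.66) and by 1.39 in W11 (2.63-fold, 2.53 to 2.73). In W2 its log2 fold was -0.69, under 2-fold.

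Fosb showed the widest range of the 10 genes, 6.84-fold between its highest and lowest libraries. It was at 142 CPM in W0, 91.8 CPM in W2, 62 CPM in W5, 20.7 CPM in W8 and 33 CPM in W11. The order of its libraries was that of Fos, with W0 highest and W8 lowest. Fosb fell by 1.18 at W5 against W0 (2.28-fold, 2.13 to 2.45), by 2.72 at W8 (6.84-fold, 6.03 to 7.79) and by 2.07 at W11 (4.29-fold, 3.88 to 4.75). In W8 against W5 it fell by 1.54 (3-fold, 2.63 to 3.42).

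The JUN family members did not share this course. Jun, the AP-1 subunit that can also pair with itself, was at 253 CPM in W0, 248 CPM in W2, 119 CPM in W5, 217 CPM in W8 and 225 CPM in W11. A single library, W5, was low, and the other 4 lay between 217 and 253 CPM. Jun fell by 1.09 at W5 against W0 (2.13-fold, 2.02 to 2.25), while its log2 fold was -0.22 at W8 and -0.17 at W11. The W5 call of Jun is close to the limit: less the median fold of genes of like GC content it was -0.99.

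Junb, which dampens AP-1 activity in many settings, passed 2-fold in no comparison. It was at 241 CPM in W0, 234 CPM in W2, 145 CPM in W5, 179 CPM in W8 and 233 CPM in W11. Its log2 folds against W0 were -0.04 (W2), -0.73 (W5), -0.43 (W8) and -0.05 (W11), and its range of 1.66-fold was the narrowest of the 10 genes. The W5 library was again the lowest in CPM, and the intervals of W2 and W11 overlapped that of W0. Less the median fold of genes of like GC content, Junb had log2 folds against W0 of -0.52 at W5 and -0.51 at W8.

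Since FOS proteins need a JUN partner, the transcripts were also set against each other within each library, per length, as ratios of RPKM (counts scaled to gene length and library depth), which do not depend on library scaling. The ratio of Fos to Jun was 2.09 (2.01 to 2.17) in W0, 1.32 (1.27 to 1.38) in W2, 1.83 (1.74 to 1.92) in W5, 0.696 (0.659 to 0.734) in W8 and 0.893 (0.852 to 0.936) in W11. W8 and W11 were the low libraries. Which of the pair was higher there depends on the gene model: the deposited columns imply a Jun length 0.831 times that of Fos, against 1.36 times by exonic bases in GENCODE M21. By exonic bases the ratio was 3.36 (3.23 to 3.5) in W0, 2.13 in W2, 2.95 in W5, 1.12 (1.06 to 1.18) in W8 and 1.44 (1.37 to 1.51) in W11, above 1 in every library, with the same order of libraries. The ratio of Fosb to Junb was 0.0643 in W0, 0.043 in W2, 0.0468 in W5, 0.0126 in W8 and 0.0155 in W11, so that W8 and W11 were again the low libraries. The size of this ratio also depends on the gene model, but the order of libraries does not. In CPM per exonic kilobase, Fosb was at 22.7 and Junb at 105 in W0.

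**Figure D2:**
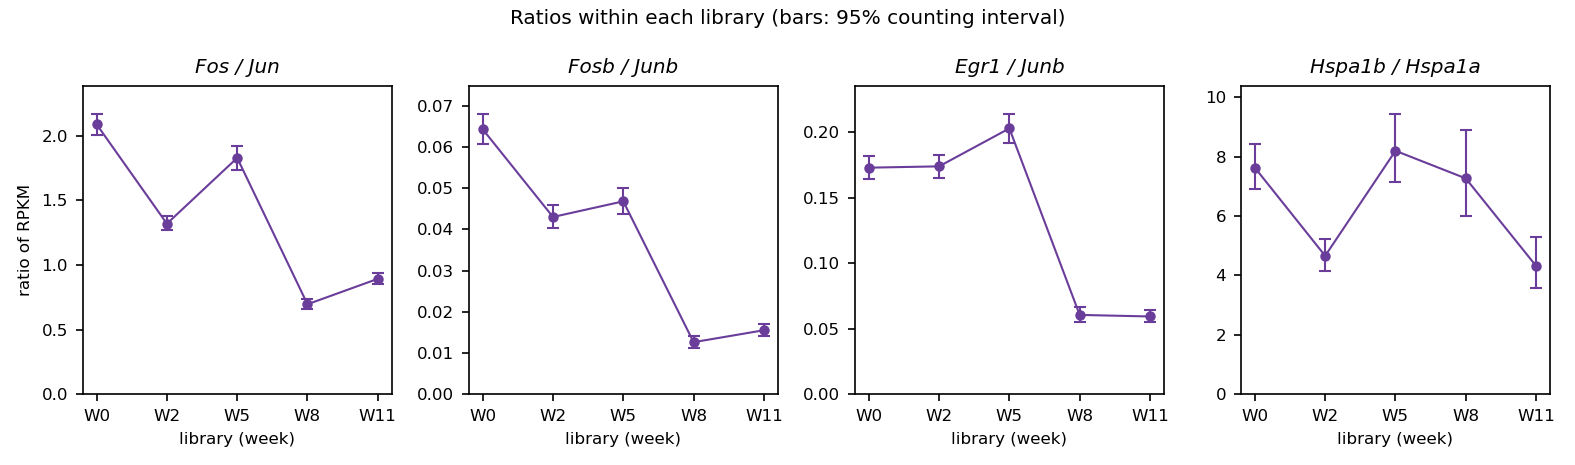
Ratios of RPKM within each library for 4 pairs of genes, with 95% counting intervals and axes starting at 0. Fos to Jun, Fosb to Junb and Egr1 to Junb were lower in W8 and W11 than in W0, W2 and W5, while Hspa1b to Hspa1a was lowest in W11 and W2.

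Egr1, a zinc finger transcription factor that ERK signalling induces, stayed within 2-fold of its W0 level up to W5 and was lower from W8. It was at 173 CPM in W0, 169 CPM in W2, 123 CPM in W5, 45 CPM in W8 and 57.5 CPM in W11. The log2 fold against W0 was -0.49 at W5, under 2-fold, and Egr1 fell by 1.92 at W8 (3.84-fold, 3.51 to 4.2) and by 1.57 at W11 (3.01-fold, 2.78 to 3.25). W8 was also lower than W5, by 1.42 (2.72-fold, 2.49 to 2.98). Its ratio of RPKM to Junb was 0.173 in W0, 0.174 in W2, 0.203 in W5, 0.0605 in W8 and 0.0593 in W11, with the W8 and W11 intervals overlapping each other and no other. The size of this ratio depends on the gene model too: in CPM per exonic kilobase, Egr1 was at 38.5 and Junb at 105 in W0.

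Nr4a1, an orphan nuclear receptor also known as NUR77, was at 138 CPM in W0, 154 CPM in W2, 63.2 CPM in W5, 44 CPM in W8 and 53.1 CPM in W11. W0 and W2 were the high libraries, and the 3 libraries with DSS lay under both. Against W0 it fell by 1.11 at W5 (2.18-fold), by 1.62 at W8 (3.13-fold, 2.85 to 3.44) and by 1.36 at W11 (2.59-fold, 2.39 to 2.82). W5 against W2 gave the largest step of any of the 10 genes between those libraries, -1.27.

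Ier2, an immediate early gene whose product acts in the nucleus, was at 154 CPM in W0, 163 CPM in W2, 80.2 CPM in W5, 100.1 CPM in W8 and 152 CPM in W11. W5 was the lowest library in CPM, and W11 and W0 had overlapping intervals. Less the median fold of genes of like GC content, Ier2 had log2 folds against W0 of -0.72 at W5 and -0.70 at W8. It lay just outside the limit at W5 against W0, with a log2 fold of -0.93, and just inside it at W5 against W2, with -1.01 (2.03-fold, 1.91 to 2.16).

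Atf3, a bZIP factor induced by cell stress, was the 1 member whose level in CPM was higher in W11 than in W0. It was at 154 CPM in W0, 140.4 CPM in W2, 72.8 CPM in W5, 66.9 CPM in W8 and 183 CPM in W11. W5 and W8 were the low libraries and W11 the highest. Atf3 fell by 1.08 at W5 (2.12-fold) and by 1.19 at W8 (2.31-fold, 2.13 to 2.5) against W0, and its log2 fold at W11 was 0.25. In W11 against W8 it rose by 1.44, the sole rise of at least 2-fold among the 10 genes in the 7 comparisons made. Signs at W11 against W0 depended on the setting. Over the alternatives, W2 as the baseline left out, Atf3 ran from -0.07 (less the median of the length decile) to 0.47. Ier2 ran from -0.33 to 0.21, Junb from -0.36 to 0.18 and Jun from -0.29 to 0.06.

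Dusp1, the nuclear phosphatase that switches off p38, JNK and ERK, was at 157 CPM in W0, 123 CPM in W2, 102 CPM in W5, 91.1 CPM in W8 and 115 CPM in W11. W0 was highest and W8 lowest, a range of 1.72-fold. Its log2 folds against W0 were -0.34 (W2), -0.62 (W5), -0.78 (W8) and -0.44 (W11), and it passed 2-fold in no comparison.

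Hspa1a had the fewest reads of the members in every library. It was at 33.5 CPM in W0, 24.5 CPM in W2, 11.5 CPM in W5, 8.74 CPM in W8 and 8.56 CPM in W11, from 461, 358, 235, 117 and 128 reads. The 3 libraries with DSS were the low ones, and their counting intervals overlapped each other. Hspa1a fell by 1.46 at W5 (2.9-fold, 2.47 to 3.41), by 1.82 at W8 (3.83-fold, 3.12 to 4.73) and by 1.85 at W11 (3.91-fold, 3.21 to 4.79) against W0.

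Hspa1a and Hspa1b encode nearly the same protein, and 60.3% of the 50-base stretches of the Hspa1a transcript also occur in another gene, for the most part Hspa1b, against 0% for the other 9 members. How such reads were counted is not stated, so the values of each gene are uncertain and their sum is given too. The sum was 275 CPM in W0, 132 CPM in W2, 101 CPM in W5, 68.7 CPM in W8 and 43.5 CPM in W11, lower at each later library. Against W0 the sum fell by 1.05 in W2 (2.08-fold, 1.97 to 2.2), by 1.43 in W5, by 1.98 in W8 (4-fold, 3.72 to 4.3) and by 2.63 in W11 (6.31-fold, 5.81 to 6.87). At W2 the sum passed 2-fold while Hspa1a did not (-0.44), and the ratio of Hspa1b to Hspa1a was 7.63 in W0, 4.66 in W2, 8.2 in W5, 7.27 in W8 and 4.32 in W11.

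Per length, the order of the 10 genes changed between libraries and also with the gene model. By the deposited RPKM values in W0 it was Fos (79.7), Junb (63.9), Ier2 (48.5), Jun (38.2), Atf3 (28.9), Nr4a1 (17.4), Dusp1 (12.3), Egr1 (11), Hspa1a (5.42) and Fosb (4.11), and no neighbours had overlapping counting intervals. In the later libraries Junb had the highest RPKM value, at 59.8 in W2, 40.8 in W5, 47.7 in W8 and 61.2 in W11, while Fos had 47.5, 34.6, 22.9 and 30.0 RPKM, at rank 3, 2, 4 and 5. Neighbours whose intervals overlapped were Ier2 and Fos in W2, Dusp1, Nr4a1 and Egr1 (8.29 to 8.47 RPKM) and Hspa1a and Fosb in W5, Jun and Ier2 in W8, and Atf3 and Jun in W11.

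These ranks rest on the lengths that the deposited columns imply, which differ from the exonic bases in GENCODE M21. Relative to Fos, the implied length was 0.477 for Junb, 0.401 for Ier2, 0.676 for Atf3 and 4.4 for Fosb, against 0.978, 0.647, 0.916 and 2.65 by exonic bases. In CPM per exonic kilobase, Fos was ahead of Junb in W0 (267 against 105), in W2 (166 against 102) and in W5 (109.8 against 63.1). In W8 (76.5 against 77.7) and W11 (102 against 101) the intervals of Fos and Junb overlapped, so that neither led. With exonic lengths Hspa1a had the lowest value in every library and Fosb the next, with overlapping intervals in W8. The length chosen for a gene cancels when that gene is compared with itself between libraries. Folds over all tested genes still differed with length, as given below.

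Counted over the 10 genes, no member passed 2-fold at W2 against W0, where 3.41% of all tested genes were higher and 4.23% lower. At W5 against W0, 6 members fell and 0 rose, beside 1.87% of all tested genes lower and 6.63% higher. At W8, 6 fell and 0 rose, beside 3.85% lower and 7.79% higher. At W11, 5 fell and 0 rose, beside 16.9% lower and 11.3% higher. These comparisons share the W0 library, so a high value there enters all of them.

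Fos, Fosb, Nr4a1 and Hspa1a fell at W5, W8 and W11, joined by Jun and Atf3 at W5, by Egr1 and Atf3 at W8 and by Egr1 at W11. The median log2 fold of the members was -0.09 (W2), -1.08 (W5), -1.41 (W8) and -0.90 (W11), beside -0.02, 0.11, 0.11 and -0.15 for all tested genes. Just inside and just outside the limit lay Atf3 (-1.08) and Ier2 (-0.93) at W5, Atf3 (-1.19) and Dusp1 (-0.78) at W8, and Nr4a1 (-1.36) and Dusp1 (-0.44) at W11. With the deposited RPKM values and a pseudocount of 1 in place of CPM, the count at W5 was 2, and 5 with a pseudocount of 0.1.

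**Figure D3:**
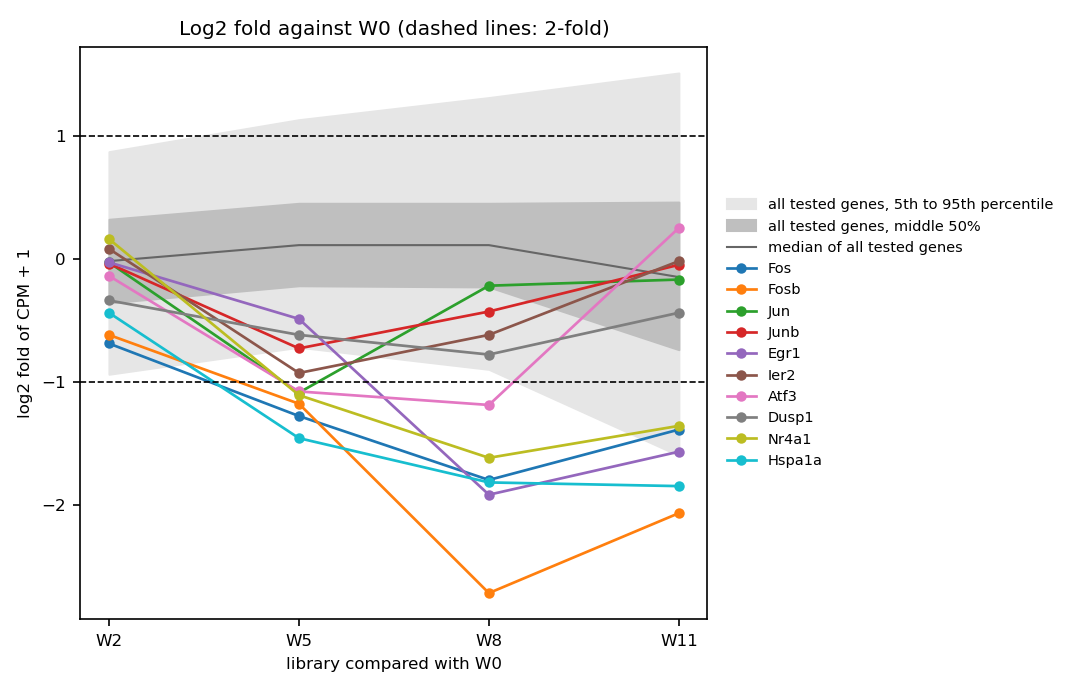
Log2 fold of CPM + 1 of each gene against W0 at W2, W5, W8 and W11, with dashed lines at 2-fold and grey bands for all 14720 tested genes (5th to 95th percentile and the middle 50%). At W5, 6 lines lie under the lower dashed line; at W11, Jun, Junb, Ier2, Dusp1 and Atf3 lie above it and the other 5 under it.

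Between neighbouring time points the members took different steps. At W5 against W2, 4 members fell (Jun -1.05, Ier2 -1.01, Nr4a1 -1.27 and Hspa1a -1.02) and 0 rose, beside 4.46% of all tested genes lower and 9.44% higher. The count depends on values near the limit, and it was 2 with a pseudocount of 5 CPM and 1 with RPKM at either pseudocount. At W8 against W5, 2 members fell, Fosb and Egr1, and 0 rose, beside 3.6% of tested genes lower and 4.78% higher. Jun (0.87), Junb (0.30) and Ier2 (0.32) had positive log2 folds. Less the median fold of genes of like GC content, these were 0.69, 0.02 and 0.04. At W11 against W8, Atf3 rose and 0 fell, beside 3.4% higher and 11.9% lower, and 9 of the 10 genes had higher levels in W11, with Hspa1a at -0.03.

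With W2 in place of W0, 6 members fell and 0 rose at W8 against W2, beside 5.56% of all tested genes lower and 10.7% higher. At W11 against W2, 4 members fell and 0 rose, beside 13.4% lower and 9.25% higher. The member that no longer passed at W11 was Fos, at -0.70, whose level in W2 was already 1.61-fold (1.56 to 1.67) under that in W0. Fosb fell by 2.10 at W8 against W2 (4.44-fold, 3.9 to 5.07) and Egr1 by 1.89 (3.76-fold, 3.44 to 4.11).

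Close relatives of the 10 genes mostly stayed within 2-fold of W0. For this list and those below, the shares of all tested genes higher than in W0 were 3.41% (W2), 6.63% (W5), 7.79% (W8) and 11.3% (W11). The shares lower were 4.23%, 1.87%, 3.85% and 16.9%. Of 12 tested AP-1 and bZIP partners of the members, 0 passed 2-fold in W2 or W5, 2 were higher in W8, and 2 were higher and 2 lower in W11, with median log2 folds of 0.28, 0.18, 0.37 and 0.00. Fosl2, another FOS family gene, was at 57.1 CPM in W11 against 154 CPM in W0 (-1.41), and Batf2 at 14 CPM against 33.4 CPM (-1.20). Batf, an AP-1 factor of lymphocytes, was at 8.7 CPM in W11 against 1.74 CPM in W0 (1.82), and Batf3, a factor of dendritic cells, at 5.49 CPM against 1.89 CPM (1.17).

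Among 5 tested EGR and NR4A relatives and NAB co-repressors, none passed 2-fold against W0, with medians of -0.06, 0.11, 0.16 and -0.22. Nr4a2 and Nr4a3, the sister receptors of Nr4a1, were at 6.48 CPM and 7.9 CPM in W5 against 4.72 CPM and 5.44 CPM in W0. The co-repressors were Nab2, at 4.92 CPM in W2 against 7.4 CPM in W0, and Nab1, at 97.5 CPM in W8 against 77.6 CPM in W0. Egr2 was listed at 0 in all libraries. For genes listed at 0 throughout, here and below, no expression and reads not counted cannot be told apart.

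Other immediate early genes rose and fell in W8 and W11. Of 24 tested, 1 rose and 0 fell in W2, 0 and 1 in W5, 3 and 5 in W8, and 4 and 6 in W11, with medians of -0.01, -0.03, -0.24 and -0.46. Among all tested genes 7.79% were higher and 3.85% lower in W8, and 11.3% and 16.9% in W11. Klf4, a differentiation factor of the colonic surface epithelium, fell to 126 CPM in W11 against 484 CPM in W0 (-1.93), and Arc to 4.48 CPM in W8 against 15.2 CPM (-1.56). Phlda1 rose to 62.2 CPM in W11 against 12.6 CPM in W0 (2.21), and Ier3, a survival gene downstream of NF-kB, to 109 CPM against 40.1 CPM (1.42). Csrnp1 was listed at 0 in all libraries.

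Feedback inhibitors of MAP kinase and NF-kB signalling, the role that Dusp1 has among the members, fell mainly in W11. Of 20 tested, 1 rose and 0 fell in W2, 0 and 0 in W5, 1 and 1 in W8, and 1 and 8 in W11, with medians of -0.08, -0.05, -0.11 and -0.63, beside the 16.9% of all tested genes that were lower at W11. Zfp36l2, which marks AU-rich transcripts for decay, fell to 12.7 CPM in W11 against 55.6 CPM in W0 (-2.05). The ERK inhibitors Spry2 and Spry4 fell to 17.7 CPM and 3.21 CPM in W11 against 58.9 CPM and 12.8 CPM in W0. Dusp4, another nuclear MAP kinase phosphatase, rose to 34.8 CPM in W8 against 8.35 CPM in W0 (1.94).

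The kinases and factors that act upstream of immediate early promoters stayed within 2-fold for the most part. Of 19 tested, 0 passed in W2 or W5, 1 rose in W8 and 2 fell in W11, with medians of -0.11, 0.20, 0.08 and -0.53. The 2 lower genes in W11 stand beside 16.9% of all tested genes. Mrtfa, a coactivator of serum response factor, was at 19.5 CPM in W11 against 45.5 CPM in W0 (-1.18), and Crtc1, a coactivator of CREB, at 7.96 CPM against 17.6 CPM (-1.06). Elk3, a ternary complex factor, was at 10.9 CPM in W8 against 4.79 CPM in W0 (1.04), and Mapk14, which encodes p38 alpha, at 55.6 CPM in W11 against 108 CPM (-0.95).

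Heat shock proteins and co-chaperones other than Hspa1a were near their W0 levels as a list. Of 30 tested, 1 rose and 1 fell in W2 and again in W5, 0 and 1 in W8, and 1 and 3 in W11, with medians of 0.26, 0.00, 0.16 and -0.16. Hspa1b fell in all 4 comparisons, to 34.9 CPM in W11 against 241 CPM in W0 (-2.75). The small heat shock protein genes Hspb6 and Hspb8, strongly expressed in muscle, rose to 25.6 CPM in W2 against 10.6 CPM in W0 (1.20) and to 144 CPM in W5 against 55.6 CPM (1.36). Cacybp, an adaptor of HSP90 and ubiquitin ligases, rose to 139 CPM in W11 against 62.1 CPM in W0 (1.15), and the constitutive Hspa8, chosen after its values were seen, was at 1980.2 CPM in W11 against 1671 CPM in W0.

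Several genes often described as AP-1 targets rose in the libraries with DSS. Of 11 tested, 1 rose and 1 fell in W2, and 5, 6 and 5 rose in W5, W8 and W11, where 0 fell, with medians of -0.32, 1.00, 1.64 and 1.00. Among all tested genes 6.63%, 7.79% and 11.3% were higher in W5, W8 and W11. The matrix metalloproteinase genes had the largest differences. Mmp10 rose to 141 CPM in W8 against 1.09 CPM in W0, from 15 reads in W0 (log2 fold 6.09, ratio 129.6, 78.4 to 232). Mmp13 rose to 110.2 CPM in W8 against 2.98 CPM (log2 fold 4.81) and Mmp9 to 61.5 CPM in W8 against 1.74 CPM (log2 fold 4.51). Mmp3 rose to 35.9 CPM in W5 against 1.89 CPM (log2 fold 3.68). These genes have other inputs than AP-1, among them NF-kB, and mRNA levels do not show AP-1 activity. Timp1 was listed at 0 in all libraries.

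**Figure D4:**
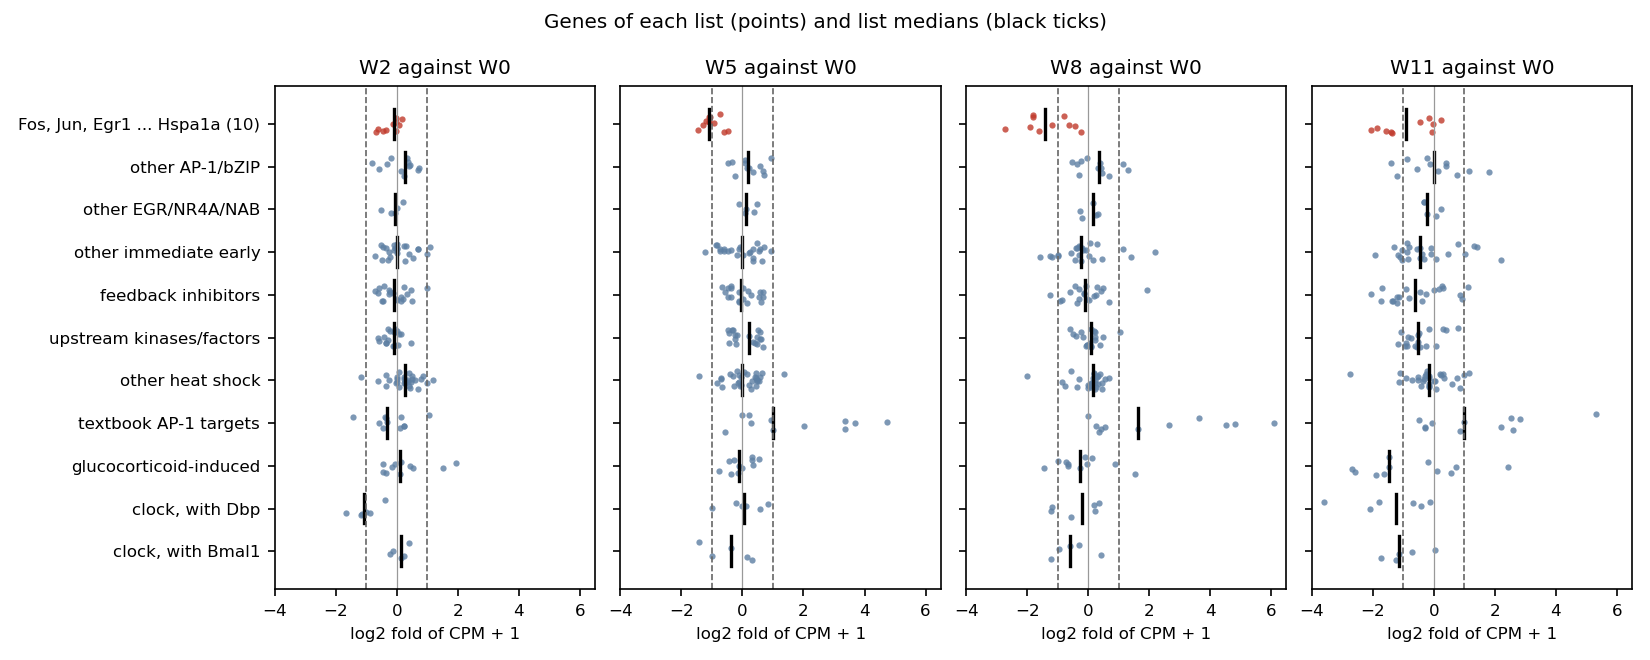
Log2 fold of CPM + 1 against W0 for the tested genes of 11 lists, 1 panel per comparison; each point is a gene, black ticks are list medians and dashed lines are 2-fold. The red points of the 10 genes lie mostly left of 0 at W5, W8 and W11, whereas the textbook AP-1 targets lie mostly to the right.

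Mitochondrial-encoded genes made up 2.19% of counts in W0, 4.87% in W2, 2.47% in W5, 1.86% in W8 and 2.83% in W11, so that W2 stood apart. These shares cover more than the 13 listed genes, which summed to 15719.8 CPM in W0 and 37851 CPM in W2. Of the 12 listed genes that were tested, 9 were higher and 1 lower in W2, and 3, 0 and 1 were higher in W5, W8 and W11. An example of the higher genes is mt-Nd6, at 381 CPM in W2 against 99.1 CPM in W0. The 1 lower gene was mt-Nd3, at 4.92 CPM in W2 against 12.8 CPM in W0, and it was at 137 CPM in W5. Levels differed widely between these genes: in W0 mt-Co1 was at 9072 CPM, mt-Co2 at 17.1 CPM and mt-Co3 at 17.9 CPM. How their reads were counted is not stated, so the shares are uncertain. The part of RNA quality in the members' values was not tested.

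Markers of cell types differed between libraries beside the members. The summed level of 9 epithelial markers was 25743 CPM in W0, 19933 in W2, 19885 in W5, 17787 in W8 and 17540.1 in W11, with 0, 0, 0 and 2 of the 9 genes at least 2-fold lower than in W0. Smooth muscle markers (8 genes) summed to 4972, 7299, 5311, 3191 and 3371 CPM in the same order of libraries, and fibroblast markers (7 genes) to 1960.0, 1246, 4198, 3177 and 2015 CPM. Neutrophil markers summed to 114, 140.4, 194, 273 and 263 CPM, with 4, 4 and 3 of 5 tested genes at least 2-fold higher in W5, W8 and W11 than in W0. Ly6g made up most of that sum in W0 (109.8 CPM) and W2 (139 CPM), and was lower in W8 (77.9 CPM) and W11 (79.1 CPM). Macrophage markers summed to 587, 359, 944, 869 and 864 CPM. In W11, 3 of the 7 macrophage genes (Csf1r, Adgre1 and Mrc1) lay below their W0 level. The part of cell composition in the members' values was not tested.

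Of the remaining marker lists, plasma cell genes summed to 1922 CPM in W0, 1021 in W2, 5514 in W5, 3323 in W8 and 3595 in W11, with Mzb1 listed at 0 throughout. B cell genes lay between 56.2 and 175 CPM with Ms4a1 listed at 0, and T cell genes between 24.8 and 61.4 CPM. Endothelial genes lay between 137 and 248 CPM, enteric neuron and glia genes between 17.3 and 96.4 CPM, highest in W2, and fat cell genes between 25.5 and 57.9 CPM.

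Transcript composition differs between the members and other genes. GC content of the longest transcript was 51.9% to 62.6% (median 56.5%), against a median of 49.8% over all tested genes, and 7 of the 10 lay in the top 2 GC deciles. At W5 against W0 the median log2 fold was 0.45 in the lowest GC decile and -0.21 in the highest, and with the median of its own decile taken off, 5 members remained at least 2-fold lower (Fos -1.30, Hspa1a -1.25, Atf3 -1.10, Fosb -1.08 and Nr4a1 -1.01). At W11 against W0 the median was 0.56 in the shortest length decile and -0.68 in the longest, and the count of members that fell was 5 after taking off length medians. Antisense or neighbouring genes overlap Jun (Junos, 232 bases), Junb (Prdx2, 173 bases), Dusp1 (Ergic1, 11 bases) and Hspa1a (Gm20481, 564 bases) on the opposite strand, and since the strand setting is not stated, their reads cannot be told apart there.

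The genes whose folds against W0 lay closest to the members' median profile were sought among genes whose mean level reached 10 CPM (9985), with the members left out. The measure was the root mean square difference of 4 log2 folds, which all share the W0 library. The closest were Ethe1 (0.14), a mitochondrial sulfur dioxygenase gene, Arntl (0.164), Chchd10 (0.183), Aldh2 (0.206), a mitochondrial aldehyde dehydrogenase gene, and Nlrp4e (0.213). Next came the immediate early gene Arc (0.232), the carbonic anhydrase gene Car1 (0.242), Slc9a3r1 (0.254), Cbr1 (0.266) and Gstm2 (0.273). Of the members themselves Nr4a1 lay closest to that profile, at 0.282, and Fosb farthest, at 0.917. Ethe1 was at 371 CPM in W0, 336 CPM in W2, 187 CPM in W5, 166 CPM in W8 and 191 CPM in W11, so its W0 and W2 levels were the high ones, as for Nr4a1.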

How the data were processed

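RNA was extracted with TRIzol and libraries were made with a TruSeq kit, per the labels' protocols. The submitters' processing notes name FastQC, featureCounts and HISAT2 2.2.1, with the builds GRCm39 (mm39) and GRCm38. Annotation release, strand setting and the handling of multi-mapped reads are not stated there. Each library has 2 columns in the deposited table. Those headed TPM hold whole-number counts, as deposited by the authors. Those headed count hold scaled values of the authors, called RPKM here, a unit that was not checked. Their absolute scale differs from CPM per exonic kilobase, for example 79.7 against 267 for Fos in W0. The headers were taken as exchanged from the values: in 2620 of 2620 genes above 5 RPKM in each library the columns were rescaled forms of each other within 1%. Columns of other series numbered 0, and 118 identifiers carry no symbol.

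CPM are counts per 1000000 of the library total, and folds are differences of log2(CPM + 1), which understates changes of low genes. The 2-fold limit, the filter on the mean level (1 CPM or more, 14720 of 52382 genes) and 95% Clopper-Pearson intervals were applied to 7 comparisons. Groups come from the labels. Named genes are the 10 members, up to 4 genes per list with the largest fold against W0 (5 CPM or more in a compared library), and the 10 genes closest to the members' median profile; Hspa8 was added after its values were seen. The members and lists were chosen with earlier results of these data known. GC content, shared 50-base stretches and overlaps come from GENCODE M21, by gene identifier, with a GC value for 99.9% of tested genes. Alternatives were pseudocounts of 0.1 and 5 CPM, a filter at 5 CPM or none, other scalings, the RPKM columns, and a baseline averaged over W0 and W2. RPKM with a pseudocount of 0.1, centring on all genes or on GC or length deciles, exonic lengths for levels between genes, and W2 as the baseline were chosen after seeing the data. Scripts were tested on simulated data. Python 3.11.15, numpy 2.4.6, pandas 2.3.3, scipy 1.17.1, matplotlib 3.10.9, and R 4.3.3 with edgeR 4.0.16 (TMM factors, no test) were used.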

Additional observations from a re-analysis of the deposited data

How the results depend on the processing

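Of 152 recomputed counts of members, 146 stayed within 1.5 times the reported count and 6 moved. Counts of 0 that stayed 0 make up most of the 146, and the 6 that moved all had a reported count above 0. Of 760 recomputed folds of single members, 473 lay inside the counting interval of the reported fold and 287 outside it. No fold that was called changed sign. Of 28 recomputed shares of all genes, 14 moved by more than 1.5 times. With RPKM and a pseudocount of 1, 2 members were lower at W5 against W0, 1 at W5 against W2 and 1 at W8 against W5, against 6, 4 and 2 as reported; RPKM with a pseudocount of 0.1 gave 1 at W5 against W2, and a pseudocount of 5 CPM gave 2. With folds less the median of the length decile, 2 members were higher at W11 against W8, Fosb (1.34) joining Atf3. The cause was not tested. Members lower at W5 against W0 numbered 4 to 7 under the other settings, those at W8 6 in every setting, and those at W11 5 except for 4 with W2 as the baseline. Without the filter, the share of all genes lower at W11 was 4.87%, against 16.9% with it, since low genes enter the denominator. Of 364 recomputed counts over the other lists, 5 moved, all with a filter at 5 CPM. Median-of-ratios scaling moved the median of all genes at W11 against W0 to 0.04, against -0.15 in CPM. No paired analysis was possible because each time point has 1 library. With single libraries, depth limits only counting error, which among the members was largest for Hspa1a (117 reads in W8). Some genes of the other lists rest on fewer reads, such as Mmp10 (15 in W0), Zbtb16 (14 in W11) and Hlf (15 in W11).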

Other observations

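Lists of genes under other inputs that act within hours are given as values. For all of them, the shares of all tested genes lower than in W0 were 4.23% (W2), 1.87% (W5), 3.85% (W8) and 16.9% (W11). The shares higher were 3.41%, 6.63%, 7.79% and 11.3%. Of 11 glucocorticoid-induced genes, 2 rose and 0 fell in W2 against W0, 0 and 0 in W5, 1 and 2 in W8, and 1 and 6 in W11, with median log2 folds of 0.09, -0.13, -0.28 and -1.46. Fkbp5, a co-chaperone of the glucocorticoid receptor, fell to 31.6 CPM in W11 against 195 CPM in W0 (-2.58), Zbtb16 to 0.937 CPM against 11.5 CPM (-2.69) and the kinase gene Sgk1 to 24.8 CPM against 93.8 CPM (-1.88). Mt2, a metallothionein gene, rose to 23.2 CPM in W11 against 3.48 CPM in W0 (2.43).

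Clock genes also differed. Of 6 tested that peak with Dbp, 4, 1, 2 and 3 fell in W2, W5, W8 and W11 and 0 rose, with medians of -1.08, 0.05, -0.19 and -1.24. Per3 and Ciart of the same list were listed at 0 in all libraries. The repressor Per2 fell to 9.03 CPM in W11 against 119 CPM in W0 (-3.58) and Tef, a bZIP factor, to 39.3 CPM against 139 CPM (-1.80). Hlf, another bZIP factor, fell to 1 CPM in W11 against 7.48 CPM in W0, and the repressor Nr1d1 to 7.44 CPM in W2 against 25.8 CPM. Of 5 that peak with Bmal1, 0, 2, 1 and 3 fell in W2, W5, W8 and W11 and 0 rose, with medians of 0.14, -0.36, -0.59 and -1.14. The activator Npas2 fell to 7.23 CPM in W11 against 26.2 CPM in W0, the repressor Cry1 to 18.7 CPM against 45.4 CPM and the activator Arntl to 16.8 CPM in W8 against 40.7 CPM, while Clock had a log2 fold of -0.71 in W11. The time of day of collection is not given in the labels, and its part in these values was not tested.

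Of 11 hypoxia-induced genes, 0 rose and 2 fell in W2 against W0, 0 and 0 in W5, 2 and 0 in W8, and 0 and 4 in W11, with medians of -0.08, 0.16, 0.01 and -0.04. Ndrg1 and the glucose transporter gene Slc2a1 fell to 40.0 CPM and 18.9 CPM in W2 against 122 CPM and 51.8 CPM in W0. Pfkfb3, a regulator of glycolysis, rose to 39.3 CPM in W8 against 14.1 CPM in W0, and Vegfa, an angiogenic factor, fell to 21.3 CPM in W11 against 58.8 CPM. Adm was listed at 0 in all libraries.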
